A study of Danio rerio with 24 samples.

Results

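Whole zebrafish larvae exposed to uranyl nitrate at 30 µg/L were compared with larvae held in vehicle, as 4 libraries against 4. These are 8 of the 24 libraries of the series, taken by their treatment label. The comparison itself was chosen with earlier results of these data known. All larvae were wildtype fish of the AB strain, and RNA for a library was taken from 10 whole larvae pooled at 5 days post fertilization (dpf). The vehicle larvae were kept in 0.3X Danieau's solution, the medium of all groups, and the exposed larvae received the same medium with uranyl nitrate from 4 hours post fertilization (hpf) onward. The other 16 libraries came from larvae given 300 µg/L uranyl nitrate, 1 or 10 µM sodium arsenite, or both agents together at 1 µM and 30 µg/L (the mixture), again 4 pools per group. Every library is therefore a mean over 10 animals and all of their organs, and nothing in the labels says whether pools of a group came from separate clutches, so a p-value here measures the spread between pools.

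Uranyl nitrate is a soluble salt of hexavalent uranium. In mammals, absorbed uranium is held mainly in the kidney, where it injures the tubule, and in bone, where it takes the place of calcium in the mineral. A larva of this age has a working eye, gut, liver, pronephros and jaw cartilage and is using up the last of its yolk. The visual cycle, which will recur in the results, is the set of reactions by which the retinal pigment epithelium turns spent all-trans retinoid back into the 11-cis chromophore that the opsins of rods and cones need. Lysosomal cathepsins are proteases that are abundant in macrophages, and ribosomal proteins are among the most abundant messages of any larva.

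Between 16581486 and 22987080 reads per library, recovered from the steps of the deposited values, lay behind the 8 libraries. The recovered depth was 17806747 to 22207690 reads in the exposed group and 16581486 to 22987080 in the vehicle group. Of 36 defining markers of 18 organs, 35 were above 0 FPKM in all 8 libraries and 31 were above 1 FPKM, FPKM being sequenced fragments scaled to gene length and library size. The marker listed at 0 was mpeg1.1, a macrophage gene, with marco, the other macrophage marker, detected in every library. Correlations across genes of log2(FPKM + 1) ran from 0.984 to 0.985 between exposed libraries, from 0.982 to 0.984 between vehicle libraries, and from 0.982 to 0.985 between the groups. On the first principal component of the 8 libraries, which held 18.5% of their variance, the exposed libraries lay at −16.3 to −2.77 and the vehicle libraries at −3.35 to 20.1, so that vehicle replicate 1 fell among the exposed ones.

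No gene passed the test. Of 22682 genes tested, 0 (0%) had an adjusted p under 0.05 in limma's fit across all genes, and the smallest adjusted p was 0.168, shared by the 5 genes that led the list. Unadjusted, 1620 genes (7.14%) had a p under 0.05, with 787 (3.47%) higher and 833 (3.67%) lower in the exposed larvae. This balance turned when every library was scaled to the same total, to 870 higher and 662 lower. In 985 genes (4.34%) the 4 exposed libraries lay wholly on 1 side of the 4 vehicle libraries, 516 (2.27%) above and 469 (2.07%) below. Differences were small: the median over all genes was 0.00 on the log2(FPKM + 1) scale, and 73 genes (0.322%) differed by at least 1 on that scale. Everything below is thus a description of direction, size and spread, and the unadjusted p printed beside a gene orders genes and calls none.

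**Figure D1:**
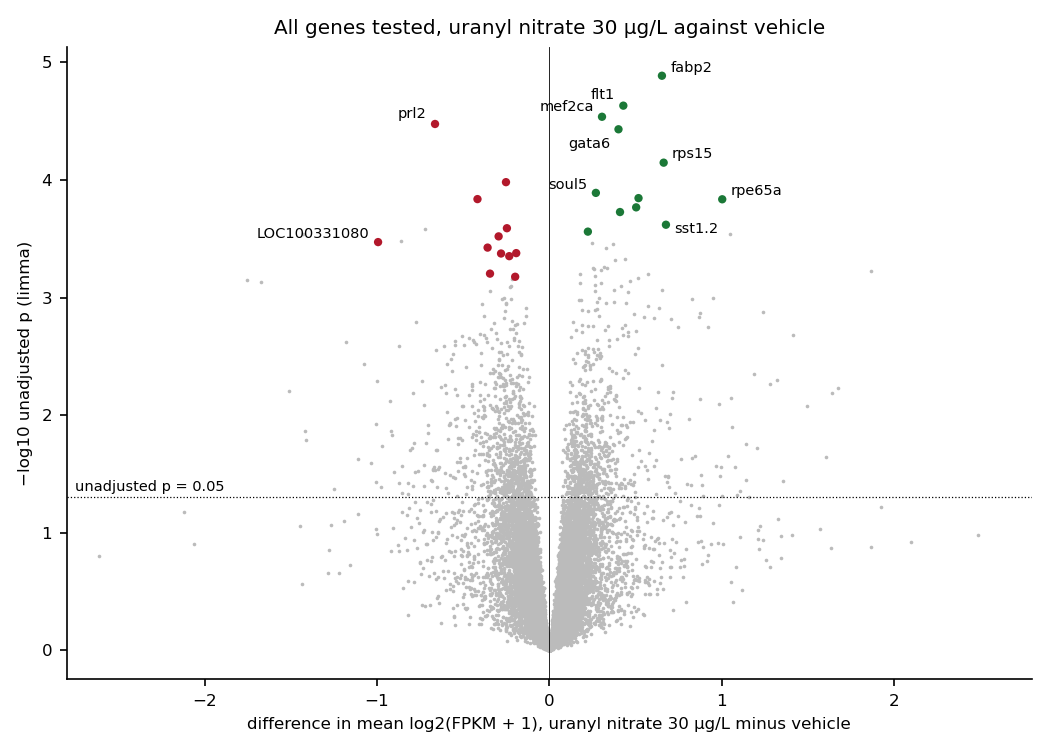
Each point is a gene, placed by its difference in mean log2(FPKM + 1) between uranyl nitrate 30 µg/L and vehicle (horizontal axis, log2 units) and by −log10 of its unadjusted limma p (vertical axis). Green and red points are the 12 higher and 12 lower genes of smallest p among those whose 4 exposed and 4 vehicle libraries did not overlap; fabp2 stands highest, and no point has an adjusted p below 0.168.

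The gene of smallest p was fabp2, which encodes the intestinal fatty acid binding protein of enterocytes. Its difference was 0.65 ± 0.12 (SE) on the log2(FPKM + 1) scale, with all 4 exposed libraries above all 4 vehicle libraries. Its mean in vehicle was 3.93 FPKM, from 69 to 105 reads per library. Enterocyte genes as a list did not shift, with a median of −0.0007 over 51 tested. Of these, 2 (3.92%) were higher and 4 (7.84%) lower at unadjusted p under 0.05, against 3.47% and 3.67% of all genes. Next among the higher genes came flt1, the VEGF receptor that acts largely as a decoy on endothelium, at 0.43 ± 0.08, although its level was low. In vehicle flt1 stood at 0.543, 0.318, 0.476 and 0.394 FPKM, and in the exposed larvae at 0.761, 0.982, 0.940 and 1.03 FPKM. The transcription factor mef2ca, used in muscle and in the jaw skeleton, read 14.1, 15.4, 13.2 and 15.0 FPKM in vehicle and 18.7, 17.03, 19.2 and 17.4 FPKM after exposure. For gata6, a transcription factor of heart and gut endoderm, the vehicle values were 6.81, 7.49, 8.52 and 9.56 FPKM and the exposed values 11.9, 10.23, 10.8 and 10.8 FPKM. In all 3 genes the lowest exposed library was above the highest vehicle library. Their mean FPKM was also above vehicle in every other exposed group of the series, in comparisons that share the vehicle libraries.

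Hormone genes appeared in both directions. The pituitary hormone gene prl2 was the lower gene of smallest p, at 1.304, 1.16, 1.57 and 0.764 FPKM in vehicle and 0.293, 0.325, 0.463 and 0.436 FPKM in the exposed larvae, a difference of −0.66 ± 0.13 that rested on 13 to 27 reads per vehicle library. Its paralog prl, the classical prolactin of freshwater ion balance, lay the other way, at 1.68, 1.90, 0.929 and 2.17 FPKM against 3.64, 3.19, 2.17 and 3.54 FPKM (0.64 ± 0.17, unadjusted p 0.0012). Neither gene had overlapping groups, although for prl exposed replicate 3 and vehicle replicate 4 were equal to the digits shown. Growth hormone, gh1, a pituitary product, differed by −0.03 ± 0.13. Somatostatin sst1.2, an inhibitory hormone of pancreas and brain, was 12.8, 7.51, 9.35 and 12.5 FPKM in vehicle and 18.7, 16.01, 16.9 and 16.8 FPKM after exposure (0.68 ± 0.15), again without overlap. Over the 71 hormone and neuropeptide genes tested, the list median was −0.01. At unadjusted p under 0.05, 5 (7.04%) were higher and 5 (7.04%) lower, against 3.47% and 3.67% of all genes. Without vehicle replicate 4, 3 genes passed in limma, 1 higher and 2 lower, with a smallest adjusted p of 0.013. Among them were prl2 and gata6, at adjusted p-values of 0.048 and 0.027. Without vehicle replicate 1, fabp2 reached an adjusted p of 0.0028 in limma. Without exposed replicate 1, 2, 3 or 4, 0 genes passed, and the smallest adjusted p in limma was 0.293, 0.263, 0.224 and 0.404.

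The remaining genes of this ranking differed by less, or were less well known. Higher without overlap were slc12a1, the kidney's sodium, potassium and chloride cotransporter (0.41 ± 0.09), the adaptor subunit ap1s3a (0.52 ± 0.11), the receptor gpr3 (0.50 ± 0.11), the small GTPase rasl11b (0.22 ± 0.05) and soul5, of a heme-binding family (0.27 ± 0.06). Lower without overlap were the oxidoreductase dhdh.2 (−0.25 ± 0.05), the peroxisomal fatty acid enzyme hsd17b4 (−0.23 ± 0.06), the presynaptic scaffold rimbp2b (−0.25 ± 0.06), the neurofilament nefma (−0.20 ± 0.05), the Ras regulator rasa3 (−0.19 ± 0.05), aspscr1 (−0.29 ± 0.07), slc35d2 (−0.28 ± 0.07), ptchd4 (−0.42 ± 0.09), zgc:193593 (−0.36 ± 0.08), LOC100536182 (−0.34 ± 0.09) and LOC100331080 (−0.99 ± 0.23). The synaptic and neurofilament genes were single entries, since the 57 neuron markers tested had a median of 0.00. At unadjusted p under 0.05, 1 (1.75%) was higher and 2 (3.51%) were lower, against 3.47% and 3.67% of all genes.

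Shifts were then read over 65 lists of tissue markers and pathway members, 64 of which had members among the genes tested. For each list, the level of a library is the median over its tested members of log2(FPKM + 1) minus the gene's vehicle mean, so a level of 0 is the vehicle average. A list was described in depth when at least 8 members were tested, its median lay at least 0.08 from that of all genes, and at least 70% of members lay on that side; 10 lists met this. A pair of eye lists, for photoreceptors and for the pigment epithelium and retinoid cycle, was added after its values were seen, because these held the largest shares of members higher at unadjusted p under 0.05. In bulk larvae, fewer cells of a type and less RNA per cell cannot be told apart, and members of a list share cells and libraries and are not replicates. Every list count is to be read beside the shares over all genes. These are 3.47% higher and 3.67% lower at unadjusted p under 0.05, and 2.27% higher and 2.07% lower without overlap.

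**Figure D2:**
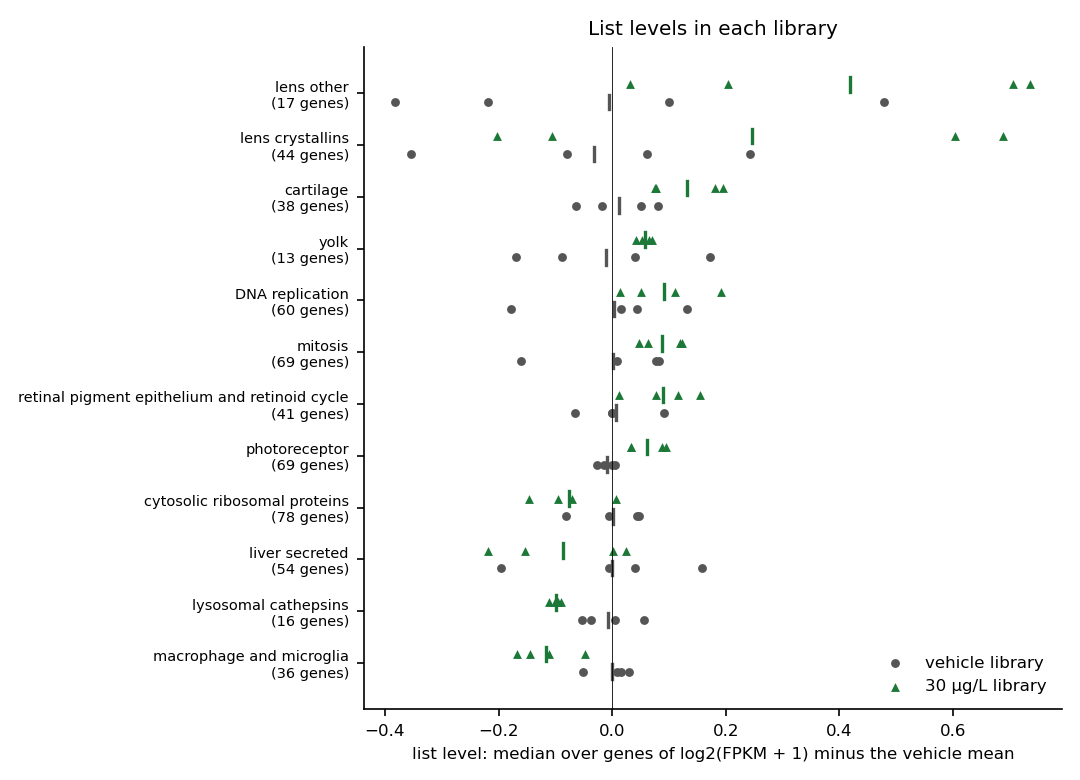
Levels of the 12 lists described, 1 symbol per library (circles vehicle, triangles uranyl nitrate 30 µg/L, vertical bars the group means), on the log2(FPKM + 1) scale relative to the vehicle mean. The groups are fully apart for lysosomal cathepsins and photoreceptors, and the lens lists have the widest spread within each group.

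Several genes of the retinoid cycle were higher in mean in the exposed larvae. The isomerase rpe65a, the enzyme that makes 11-cis retinol, read 12.8, 38.59, 25.6 and 31.3 FPKM in vehicle replicates 1 to 4 and 51.7, 55.7, 47.4 and 51.4 FPKM in the exposed replicates. The retinol acyltransferase gene lratb.2, whose family makes the ester that the isomerase uses, read 2.71, 10.5, 5.15 and 5.77 FPKM against 13.0, 13.9, 10.5 and 12.6 FPKM. For rlbp1b, a binding protein for 11-cis retinoid, the values were 4.53, 13.2, 7.36 and 8.0 FPKM against 14.1, 14.3, 16.5 and 13.7 FPKM. In these 3 genes vehicle replicate 1 was the lowest library and vehicle replicate 2 the highest vehicle library, and for lratb.2 it lay just above exposed replicate 3, so that the groups overlapped. The ratio of mean FPKM was 1.90 for rpe65a, 2.07 for lratb.2 and 1.77 for rlbp1b, and the log2 differences were 1.00 ± 0.22, 1.05 ± 0.24 and 0.83 ± 0.22. Leaving out vehicle replicate 1 took these differences to 0.69, 0.78 and 0.61, and leaving out vehicle replicate 2 took them to 1.2, 1.32 and 1.06.

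Retinol dehydrogenase rdh5, which oxidises 11-cis retinol, had 2.14, 7.05, 3.79 and 4.296 FPKM in vehicle and 6.68, 9.56, 8.52 and 8.31 FPKM after exposure, with vehicle replicate 2 inside the exposed range. The opsin-like retinoid proteins rgra and rgrb differed by 0.46 ± 0.12 and 0.44 ± 0.14, and the interphotoreceptor carrier rbp3 by 0.21 ± 0.08. In all, 12 of 41 members tested (29.3%) were higher and 1 was lower at unadjusted p under 0.05, against 3.47% and 3.67% of all genes. Of the 41, 7 were higher without overlap, against 2.27% of all genes. The retinol dehydrogenase rdh10b was the lower member, at −0.24 ± 0.11. The list median was 0.08, with 25 members higher and 16 lower. The share of members higher in mean, 61.0%, was short of the share used to choose lists. With 1 library left out, the count of members higher at unadjusted p under 0.05 was 8 (without vehicle replicate 3) to 12. Against the same vehicle libraries, 1 µM arsenite gave 10 members higher and 0 lower at that level (median 0.08). The mixture gave 6 higher and 0 lower against them (median 0.06).

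Several photoreceptor genes were also higher in mean. Cone arrestin arr3b stood at 47.7, 53.7, 52.5 and 55.2 FPKM in vehicle and at 63.5, 71.5, 66.0 and 72.6 FPKM in the exposed larvae. The calcium sensor recoverin, rcvrn3, read 159, 160, 165 and 157 FPKM against 180, 189, 172 and 184 FPKM, and rod arrestin sagb read 153, 168, 158 and 156 FPKM against 182, 189, 185 and 184 FPKM. None of these 3 genes had overlapping groups, and their log2 differences were 0.38 ± 0.09, 0.18 ± 0.04 and 0.22 ± 0.06. Rod transducin gnat1 (0.25 ± 0.07), the cone opsin kinase grk7a (0.26 ± 0.08) and rhodopsin rho (0.17 ± 0.07) lay the same way. The photoreceptor marker gnat2 did not, with means of 234 FPKM in vehicle and 229 FPKM after exposure. Of 69 members tested, 46 were higher and 23 lower in mean. The list median of 0.07 and this share were short of the 0.08 and 70% used to choose lists. At unadjusted p under 0.05, 17 (24.6%) were higher and 2 lower, and 15 were higher without overlap against 2.27% of all genes. The 2 members lower at that level were pde6hb, a cone phosphodiesterase subunit (−0.19 ± 0.05), and impg1a, a matrix protein (−0.15 ± 0.06). List levels were 0.03 to 0.09 in the exposed libraries and −0.03 to 0.00 in vehicle. With 1 µM arsenite against the same vehicle libraries, 16 members were higher and 4 lower at unadjusted p under 0.05. The secreted retinol carrier rbp4l, counted on both the photoreceptor and the liver list, was 195, 226, 185 and 188 FPKM in vehicle and 251, 265, 226 and 236 FPKM after exposure.

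The lens gave the largest list medians and the least repeatable ones. All 17 non-crystallin lens genes tested were higher in mean, with a median of 0.42, and none had an unadjusted p under 0.05. All 17 were also higher in mean than the same vehicle libraries with 1 µM arsenite (median 0.32) and in the mixture (median 0.29). The beaded filament gene bfsp2, a lens fiber protein, read 9.28, 1.61, 5.73 and 1.43 FPKM in vehicle and 7.40, 19.4, 19.5 and 5.11 FPKM in the exposed larvae, and lgsn, a lens protein of the glutamine synthetase family, read 2.63, 0.266, 1.99 and 0.249 FPKM against 2.69, 7.97, 6.71 and 1.66 FPKM. The same libraries carried both genes: vehicle replicates 2 and 4 were low, exposed replicates 2 and 3 were high, and the groups overlapped. Of 44 crystallin genes, 34 were higher in mean with a median of 0.20, and 3 were higher and 1 lower at unadjusted p under 0.05. One of the 3, crygm2d12, owed its difference of 1.64 ± 0.54 to 42.9 FPKM in exposed replicate 2, beside 1.38, 3.73 and 2.03 FPKM in the others. Crystallins of this family are near copies of each other, and how reads were shared between them is not given in the sources used here. The crystallin median was 0.05 without exposed replicate 3 and 0.36 without exposed replicate 4, and the count of higher members was 1 without exposed replicate 2.

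Cartilage genes were higher in 32 of 38 members tested, with a median of 0.12. The main collagen of cartilage, col2a1a, read 117, 132, 114 and 96.6 FPKM in vehicle and 140, 145, 149 and 139 FPKM after exposure. The fibril collagen col11a2 read 40.9, 47.2, 40.02 and 50.8 FPKM against 53.6, 50.3, 58.7 and 56.0 FPKM, and col9a2 read 78.1, 91.8, 81.0 and 90.7 FPKM against 99.4, 94.4, 103 and 101.3 FPKM. Groups did not overlap for col2a1a and col9a2, and exposed replicate 2 fell within the vehicle range for col11a2. Their differences were 0.32 ± 0.11, 0.29 ± 0.11 and 0.22 ± 0.09. At unadjusted p under 0.05, 6 of 38 members (15.8%) were higher and 0 lower, against 3.47% and 3.67% of all genes. That count was 1 without exposed replicate 3, 1 without vehicle replicate 3 and 3 without vehicle replicate 1, while the list median kept between 0.10 and 0.14. Over all 59 collagen genes tested, which include these, 8 were higher and 0 lower at unadjusted p under 0.05.

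Bone, a known store of uranium, gave mixed values. Of 36 bone genes tested, 3 (8.33%) were higher and 2 (5.56%) lower at unadjusted p under 0.05, against 3.47% and 3.67% of all genes, and the median was 0.05. The mineralisation gene ifitm5 of osteoblasts was 9.08, 9.09, 9.07 and 9.10 FPKM in vehicle and 11.9, 12.7, 12.8 and 10.31 FPKM after exposure (0.35 ± 0.12), and the osteoblast factor sp7 was higher without overlap as well (0.21 ± 0.09). The lower members, csf1ra and the acid phosphatase acp5b (−0.19 ± 0.09), are genes of the monocyte and osteoclast lineage. These members, and all members named from lists outside the 12, were picked after their values were seen.

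Macrophage and lysosome genes lay lower. Of 36 macrophage and microglia genes tested, 27 were lower in mean, and the median was −0.12. At unadjusted p under 0.05, 7 (19.4%) were lower and 0 higher, against 3.67% and 3.47% of all genes. The median was −0.048 with a pseudocount of 5, nearer to 0 than the limit of 0.08 used to choose lists. The receptor csf1ra, which macrophages and pigment cells need, read 8.95, 10.5, 8.80 and 10.28 FPKM in vehicle and 7.26, 6.85, 8.32 and 7.96 FPKM in the exposed larvae. The perforin-like gene mpeg1.2 read 13.8, 15.0, 27.7 and 11.6 FPKM against 8.20, 8.23, 10.0 and 13.1 FPKM, and the scavenger receptor marco read 4.68, 4.84, 3.80 and 4.12 FPKM against 3.40, 3.17, 3.48 and 3.11 FPKM. For csf1ra and marco every exposed library was below every vehicle library, while for mpeg1.2 exposed replicate 4 was within the vehicle range. The differences were −0.31 ± 0.10, −0.68 ± 0.29 and −0.32 ± 0.15. Fewer members passed, 4 in each case, without exposed replicate 1, exposed replicate 4 or vehicle replicate 2. Neutrophil genes, the other phagocyte list, had 0 higher and 2 lower of 27 tested, with a median of −0.02.

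Of 16 cathepsin genes tested, 14 were lower in mean, with a median of −0.09. At unadjusted p under 0.05, 5 (31.2%) were lower, against 3.67% of all genes. Of these, ctsd, ctsba and ctss2.1 lay below vehicle without overlap. The aspartic protease gene ctsd was 24.8, 24.4, 24.5 and 27.2 FPKM in vehicle and 23.0, 22.4, 19.1 and 21.3 FPKM after exposure. The cysteine protease gene ctsba was 106, 117, 113 and 112 FPKM against 96.3, 104, 100 and 99.4 FPKM, and ctss2.2, a cathepsin S gene that is also on the macrophage list, was 13.5, 14.7, 17.3 and 11.8 FPKM against 8.95, 9.70, 11.8 and 10.9 FPKM. The differences were −0.23 ± 0.08, −0.16 ± 0.06 and −0.43 ± 0.17, and for ctss2.2 exposed replicate 3 was just above vehicle replicate 4. List levels were −0.11 to −0.09 in the exposed libraries and −0.05 to 0.06 in vehicle, and 3 members passed without vehicle replicate 3. Vacuolar ATPase genes, whose pump acidifies the lysosome, had a median of 0.00 over 26 members, with 1 higher and 0 lower. Inflammation genes had 6 lower (9.68%) and 1 higher (1.61%) of 62, against 3.67% and 3.47% of all genes. Among them were the interferon-induced rsad2 (−0.57 ± 0.17) and inducible nitric oxide synthase nos2a (−0.36 ± 0.15), both lower without overlap.

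Liver genes for secreted proteins and liver enzymes were lower in 38 of 54 members, with a median of −0.08. The heparin cofactor gene serpind1 read 7.91, 6.23, 7.12 and 7.44 FPKM in vehicle and 5.70, 5.57, 6.13 and 5.13 FPKM after exposure, without overlap (−0.30 ± 0.09). Urate oxidase uox, an enzyme of purine breakdown, read 62.4, 52.8, 75.8 and 66.9 FPKM against 46.2, 52.2, 55.6 and 51.3 FPKM (−0.31 ± 0.12), and the liver fatty acid binding protein gene fabp10a read 807, 480, 723 and 611 FPKM against 502, 512, 526 and 503 FPKM (−0.33 ± 0.15). The exposed values of fabp10a were tight, and vehicle replicate 2 was lower than all of them. At unadjusted p under 0.05, 6 of 54 members were lower, against 3.67% of all genes, and 1 (1.85%) was higher, against 3.47%, namely rbp4l. The count of lower members was 1 without exposed replicate 1 or vehicle replicate 3, 2 without vehicle replicate 1 and 3 without exposed replicate 2 or 4. Serine protease inhibitors, many of them liver products, had a median of −0.12 over 23 genes, and their levels of −0.11 to −0.04 lay below the −0.04 to 0.06 of vehicle.

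Yolk genes were higher in 10 of 13 members with a median of 0.09, but the levels of 0.04 to 0.07 lay inside the vehicle range of −0.17 to 0.17, and the median was near 0 without vehicle replicate 2. The lipase cofactor apoc2 was the member of smallest p, at 545, 417, 553 and 459 FPKM in vehicle and 549, 516, 600 and 598 FPKM after exposure (0.20 ± 0.10). The lipid transfer protein gene mttp, which loads yolk and gut lipoproteins, differed by 0.09 ± 0.08.

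Genes for cytosolic ribosomal proteins were lower in 73 of 78 members, each by a small amount. The median was −0.08, and 21 members (26.9%) were lower at unadjusted p under 0.05, against 3.67% of all genes. Of these, 4 were lower without overlap, beside 2.07% of all genes. A large-subunit gene, rpl26, read 1616, 1522, 1576 and 1518 FPKM in vehicle and 1409, 1434, 1347 and 1326 FPKM after exposure. Of the small-subunit genes, rps25 read 1506, 1441, 1437 and 1366 FPKM against 1329, 1351, 1174 and 1220 FPKM. Both genes were lower in every exposed library, by −0.18 ± 0.05 and −0.18 ± 0.06. The size of this count turned on single libraries, with 39 lower members without exposed replicate 2, 32 without vehicle replicate 4, 13 without vehicle replicate 1, 10 without exposed replicate 3 or vehicle replicate 3, and 11 when the 2 groups were fitted alone. Against this direction, rps15 was at 10.09, 6.88, 7.02 and 7.11 FPKM in vehicle and 12.5, 15.7, 12.3 and 10.9 FPKM after exposure (0.66 ± 0.14), levels far under those of the other members, and whether its reads were shared with another copy was not tested. Ribosome biogenesis genes had 0 higher and 5 lower of 99, with a median of −0.02.

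Cell cycle genes were higher by little in many members. Of 60 DNA replication genes, 49 were higher with a median of 0.09, and 3 (5%) were higher at unadjusted p under 0.05. Of 69 mitosis genes, 61 were higher with a median of 0.09, and 1 (1.45%) was higher at that level. Over all genes that share was 3.47%, so the shifts lay in the sign of many members and not in these counts. The origin subunit orc6, at 2.82, 2.83, 3.91 and 3.17 FPKM in vehicle and 4.13, 4.24, 4.84 and 3.67 FPKM after exposure, and the cyclin ccne2, at 2.79, 2.79, 3.304 and 3.06 FPKM against 3.28, 3.28, 4.16 and 4.11 FPKM, overlapped slightly between the groups. The spindle checkpoint gene mad2l1 read 7.63, 5.05, 5.76 and 6.69 FPKM against 8.31, 7.94, 9.64 and 8.89 FPKM, with no overlap. Both list medians depended on vehicle replicate 2, the lowest vehicle library for both lists, and were 0.02 for replication and 0.03 for mitosis without it.

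The difference between 30 and 300 µg/L, tested directly, gave further values for these lists. Vehicle libraries entered it only through the shared estimate of spread, but the 30 µg/L libraries are those used above. For genes and lists picked above by their 30 µg/L values, it is therefore not a separate test. There 1509 genes (6.65%) passed at adjusted p under 0.05 in limma, 596 (2.63%) higher and 913 (4.03%) lower at 300 µg/L. Of the 60 replication genes 39 passed as lower at 300 µg/L, with a list median of −0.47, and 1 was higher in mean. Of the 69 mitosis genes 45 passed as lower, with a median of −0.44, and 0 were higher in mean. Against vehicle, the 300 µg/L medians were −0.38 and −0.37, beside 0.09 and 0.09 at 30 µg/L, in comparisons that share the vehicle libraries. Other 300 µg/L medians against vehicle were 0.01 for non-crystallin lens genes, −0.17 for crystallins, −0.04 for cartilage and −0.02 for yolk. They were −0.02 for photoreceptors, 0.03 for the retinoid list, −0.02 for cathepsins and −0.06 for macrophages. Ribosomal protein genes had −0.07, with 1 member higher and 21 lower at unadjusted p under 0.05. Liver genes had −0.18, with 3 higher and 11 lower. The proliferation gene mki67 differed by −0.68 between the doses (adjusted p 0.0064) and by 0.20 between 30 µg/L and vehicle. The hormone gene prl2 was higher at 300 than at 30 µg/L by 0.63 ± 0.13 (adjusted p 0.0082, limma), at 1.16 ± 0.44 (SD) FPKM, beside 1.2 ± 0.34 FPKM in vehicle. It had been named for its low values in these same 30 µg/L libraries. The pattern for collagen was the same in sign. At adjusted p under 0.05 in limma, 11 of 59 collagen genes (18.6%) were lower at 300 than at 30 µg/L and 0 higher. In mean, 9 of the 59 were higher. With 1 library left out, the count over all genes was 465, 970 and 715 without replicates 3, 2 and 4 of 30 µg/L, 520, 774 and 790 without replicates 4, 1 and 2 of 300 µg/L, and at most 1354.

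**Figure D3:**
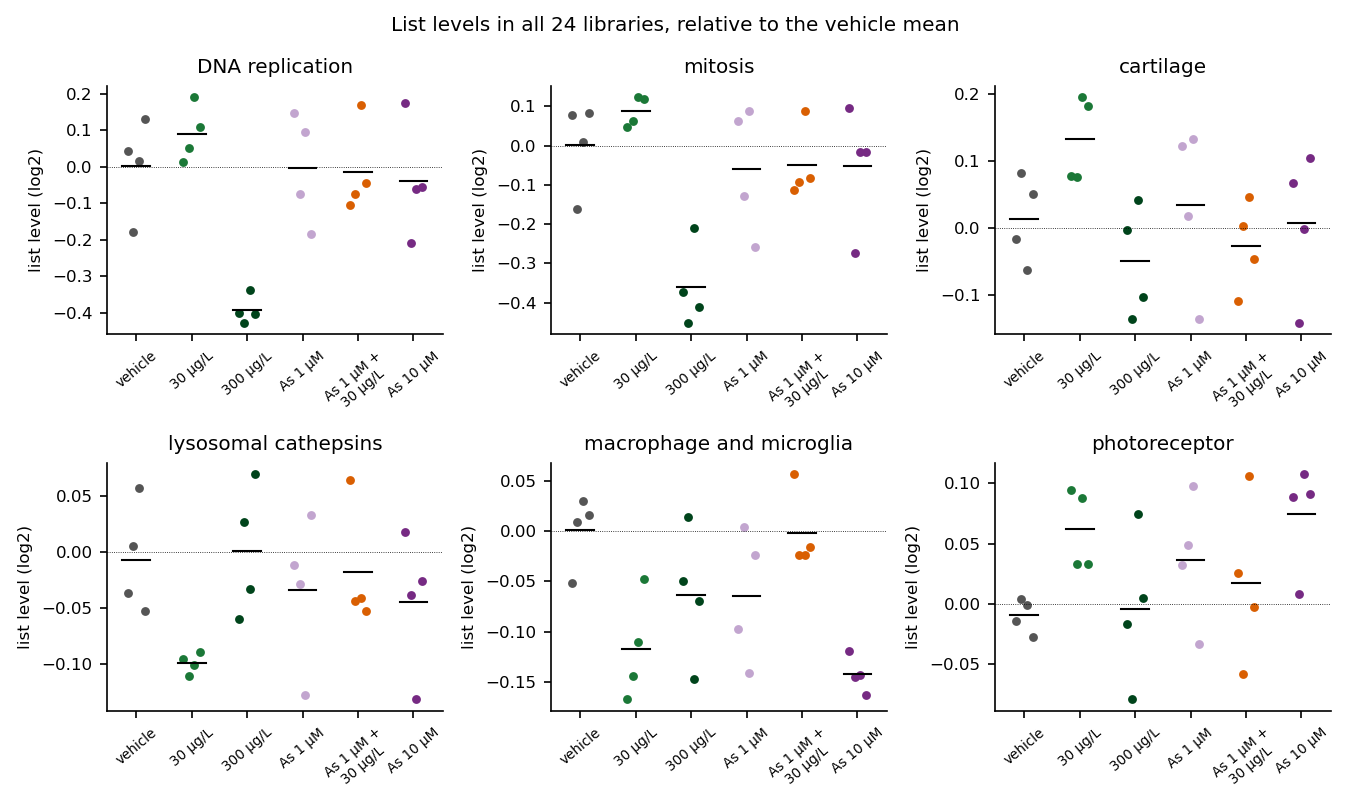
List levels (log2 units relative to the vehicle mean, vertical axis) in all 24 libraries for 6 of the lists, by group; points are libraries and bars are group means. The replication and mitosis lists were low in all 4 libraries at 300 µg/L and not at 30 µg/L, and the cathepsin list was lowest in mean at 30 µg/L.

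Kidney genes had a median of 0.08 over 51 tested. At unadjusted p under 0.05, 4 (7.84%) were higher and 0 lower, against 3.47% and 3.67% of all genes. With 1 µM arsenite against the same vehicle libraries, 6 members were higher and 1 lower at that level. The cotransporter slc12a1 read 2.43, 3.29, 2.11 and 2.96 FPKM in vehicle and 3.87, 3.61, 4.07 and 3.97 FPKM after exposure. Its mean was above the 2.70 FPKM of the same vehicle libraries in every other exposed group too. The means were 4.27 FPKM at 300 µg/L, 3.66 and 3.52 FPKM with 1 and 10 µM arsenite, and 3.73 FPKM in the mixture. Its distal-tubule relative slc12a3 differed by 0.35 ± 0.12, the podocyte factor wt1a by 0.27 ± 0.10 and the tubule cadherin cdh17 by 0.15 ± 0.06. The phosphate carriers slc20a1a and slc34a2a differed by 0.17 ± 0.19 and 0.09 ± 0.10, within the spread of libraries. Ionocytes, the salt-transporting cells of larval skin, had 7 genes higher (16.3%) and 1 lower (2.33%) of 43, against the same shares of all genes. Of the 7, 5 were copies of the potassium channel gene kcnj1a that may share reads.

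Immediate early genes, which are the first to respond to neural activity or injury, had 10 of 51 members (19.6%) higher and 3 (5.88%) lower at unadjusted p under 0.05, against 3.47% and 3.67% of all genes, and a median of 0.08. The activity-induced factor npas4a read 7.17, 6.92, 5.62 and 6.00 FPKM in vehicle and 9.71, 11.0957, 9.70 and 9.50 FPKM after exposure, and egr1 read 8.44, 9.03, 9.23 and 10.7 FPKM against 12.9, 12.5, 11.8 and 11.2 FPKM, neither with overlap. The lower members were atf3, nr4a3 and csrnp1a, at −0.42 ± 0.18, −0.39 ± 0.16 and −0.26 ± 0.12. With 1 µM arsenite against the same vehicle libraries, 25 members of this list were higher and 0 lower at unadjusted p under 0.05. Fast muscle had 11 higher (17.2%) and 3 lower (4.69%) of 64, with the giant sarcomere genes ttn.1 (0.31 ± 0.08) and ttn.2 (0.29 ± 0.08) and the calcium release channel ryr1b (0.33 ± 0.08) higher and the myosin myhz1.2 lower (−0.15 ± 0.07). Clock genes had 6 higher (11.8%) and 4 lower (7.84%) of 51. The repressor nr1d1 was higher without overlap (0.14 ± 0.04), and the clock output dbpb was lower without overlap (−0.25 ± 0.07).

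Stress genes that metals are known to induce gave little. Over the 26 metal handling genes the median was 0.04, with 2 (7.69%) higher and 0 lower at unadjusted p under 0.05. Over the 50 NRF2 and antioxidant genes it was 0.01, with 0 higher and 3 (6%) lower. Over all genes these shares were 3.47% higher and 3.67% lower. Metallothionein mt2, the metal-binding protein gene, read 7.21, 9.26, 7.87 and 9.88 FPKM in vehicle and 9.93, 203, 11.2 and 11.4 FPKM after exposure, so that all exposed libraries were above vehicle but the mean was set by exposed replicate 2. Heme oxygenase hmox1a (−0.13 ± 0.18), gclm of glutathione synthesis (0.05 ± 0.08), gstp1.2 (0.02 ± 0.07), the heat shock gene hsp70l (−0.67 ± 0.53), cyp1a (−0.15 ± 0.19), the p53 target cdkn1a (−0.03 ± 0.13) and the collagen chaperone serpinh1b (−0.13 ± 0.12) all differed by less than the spread allows to be told from 0. The 45 p53 response genes had a median of 0.02, with 24 higher and 21 lower in mean. At unadjusted p under 0.05, 4 (8.89%) were higher and 1 (2.22%) lower, against 3.47% and 3.67% of all genes. Among the higher ones were phlda3 (0.27 ± 0.08) and mdm2 (0.21 ± 0.08). The quinone reductase nqo1 was lower without overlap, at 76.9, 78.9, 79.2 and 88.2 FPKM in vehicle and 70.11, 72.0, 68.1 and 73.2 FPKM after exposure.

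The 52 lists outside the 12 had medians from −0.12 to 0.08 and 0% to 25.5% of members at unadjusted p under 0.05, against 7.14% of all genes. The lowest shares were those of exocrine pancreas enzymes, aryl hydrocarbon receptor targets and core histones, where 0 members passed. Nuclear-encoded respiratory chain genes had 4 higher and 3 lower of 99, and heat shock and chaperonin genes had 2 higher and 1 lower of 54.

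The same uranyl nitrate dose was also added to 1 µM arsenite, and the mixture against arsenite alone shares no library with the comparison above. It gave 1 gene (0.00441%) at adjusted p under 0.05 in limma, soul5, which fell by 0.51 on the log2 scale, and 0 genes when these 2 groups were fitted alone (smallest adjusted p 0.433). At unadjusted p under 0.05 there were 1798 genes (7.93%), 777 higher and 1021 lower. That balance was 943 higher and 883 lower with median-of-ratios scaling, 887 and 860 with limma-voom, and 612 and 1152 with the same total per library. Of all 22682 genes, 50.5% had the same sign of difference in both, and of the 413 genes at unadjusted p under 0.01 without arsenite, 47.7% did, as did 37.3% of the 59 genes at unadjusted p under 0.001. The Pearson correlation of the differences was −0.06 over all genes, −0.41 over the 413 and −0.58 over the 59, given as a description since genes are not independent replicates and all libraries share 1 table. At unadjusted p under 0.01 on both backgrounds there were 14 genes of the same sign and 23 of opposite sign, among the 22682 tested. Of the 1620 genes at unadjusted p under 0.05 without arsenite, 106 were at that level on arsenite with the same sign. Another 119 were at that level with the opposite sign, where 7.93% of all genes were at that level on arsenite.

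**Figure D4:**
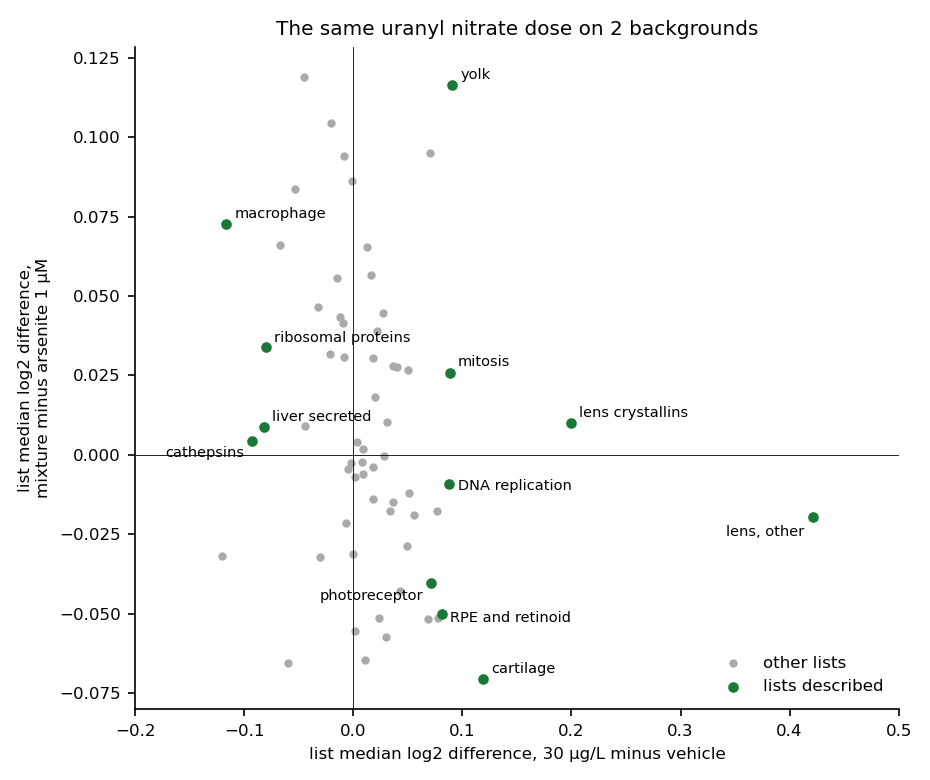
Each point is a gene list, placed by its median log2 difference for 30 µg/L uranyl nitrate minus vehicle (horizontal axis) and for the mixture minus 1 µM arsenite (vertical axis); green points are the 12 lists described. The cartilage, photoreceptor and retinoid lists lie right of 0 and below 0, and the macrophage list lies left of 0 and above 0.

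Of the 10 lists described by rule, 7 had medians of opposite sign on arsenite, where the median over all genes was −0.01. Some of these signs stand for almost no shift. The medians on arsenite were −0.02 for non-crystallin lens genes, −0.01 for DNA replication, 0.01 for liver and 0.00 for cathepsins. Cartilage had a median of −0.07 there, and 8 of its 38 members were higher in mean. Its 6 members higher at unadjusted p under 0.05 without arsenite were all lower on arsenite. Macrophage genes had a median of 0.07 with 6 members higher and 0 lower at unadjusted p under 0.05 (3.43% of all genes were higher), although with 1 library left out this median was 0.00 (without arsenite replicate 3) to 0.07. The cathepsin median was 0.00 on arsenite and −0.04 without that library. Of the 17 photoreceptor genes that were higher at unadjusted p under 0.05 without arsenite, 16 were lower on it. The whole photoreceptor list had 27 of 69 members higher in mean there, with 8 higher and 7 lower at unadjusted p under 0.05. Of the 12 such retinoid genes, 11 were lower, and 16 of all 41 on that list were higher in mean. The retinoid list had 8 members lower and 0 higher at unadjusted p under 0.05 on arsenite, against 4.5% of all genes lower.

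Levels in the 4 groups stand behind these signs. For rpe65a the group means were 27.1 ± 10.9 (SD) FPKM in vehicle, 51.5 ± 3.38 FPKM with uranyl nitrate, 51.6 ± 6.08 FPKM with arsenite and 34.5 ± 8.24 FPKM with both. For lratb.2 they were 6.04, 12.5, 14.4 and 7.08 FPKM in that order, and for LOC100331080 they were 4.81, 1.86, 1.83 and 4.59 FPKM. In these 3 genes the means with either agent alone lay on the same side of vehicle, and the mean with both lay nearer to vehicle. The departure from additivity, tested in the same limma fit, passed for 8 genes (0.0353%), among them soul5, at −0.78 ± 0.08 (adjusted p 8.3e-05), lratb.2, at −1.97 ± 0.34 (adjusted p 0.046), and LOC100331080, at 1.92 ± 0.33 (adjusted p 0.046). For rpe65a it was −1.59 ± 0.31 and did not pass (adjusted p 0.0615).

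**Figure D5:**
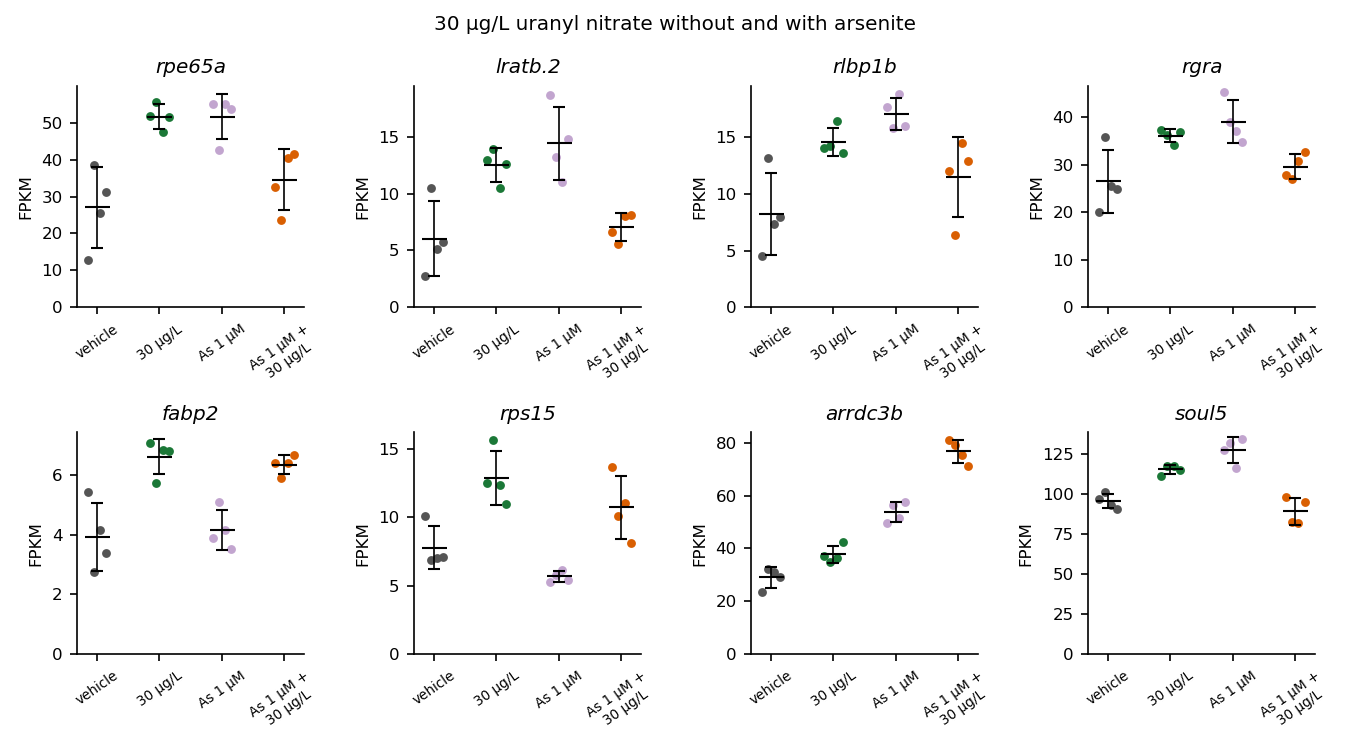
FPKM (vertical axes, from 0) of 8 genes in vehicle, 30 µg/L uranyl nitrate, 1 µM arsenite and their mixture; points are libraries, and bars give the mean ± SD of 4. In the upper row and for soul5 the mixture lies below arsenite alone, and for fabp2, rps15 and arrdc3b it lies above.

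A small set of genes lay the same way on both backgrounds. For fabp2 the means were 3.93 ± 1.15 FPKM in vehicle and 6.62 ± 0.591 with uranyl nitrate, and 4.17 ± 0.663 with arsenite and 6.36 ± 0.315 in the mixture, so the addition of uranyl nitrate gave 0.65 ± 0.12 and 0.52 ± 0.12 without overlap in either pair. For rps15 the additions gave 0.66 ± 0.14 and 0.80 ± 0.14, again without overlap in either pair, with an adjusted p of 0.078 on arsenite in limma. The arrestin-domain gene arrdc3b, a regulator of receptor trafficking, gave 0.37 ± 0.10 and 0.51 ± 0.10, and its mean was 29.0 FPKM in vehicle, 37.7 FPKM at 30 µg/L and 63.8 FPKM at 300 µg/L. The transporters slc16a6b and slc16a9b of the monocarboxylate family gave 0.43 ± 0.12 and 0.49 ± 0.12, and 0.37 ± 0.11 and 0.43 ± 0.11. Somatostatin sst2 gave 0.53 ± 0.19 and 0.55 ± 0.19. In the other direction, zgc:193593 gave −0.36 ± 0.08 and −0.39 ± 0.08 and dhdh.2 gave −0.25 ± 0.05 and −0.15 ± 0.05. With 10 µM arsenite and no uranyl nitrate, the genes named here lay the same way against the same vehicle libraries. The differences were 0.67 for fabp2, 0.56 for rps15, 0.85 for arrdc3b and 0.41 for slc16a6b. They were 0.47 for slc16a9b, 0.67 for sst2, −0.55 for zgc:193593 and −0.24 for dhdh.2. Whether these shifts are particular to uranyl nitrate was not tested. The genes were selected for small p on both sides, and apart from the groups being separate, no test of the repeat itself was made.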

How the data were processed

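Polyadenylated RNA from pools of 10 whole larvae was sequenced, per the labels' protocols. The authors deposited 1 table of FPKM values for 39974 genes in 24 libraries, with no counts; the submitters' processing notes name HISAT2 2.1.0, HTSeq 0.6.1, DESeq2 1.10.1 and the build GRCz11, without roles. All 24 columns were mapped to samples by their names, leaving 0 unused. FPKM already divides by depth and gene length, so 9030 genes listed at 0 throughout carry no information here. Whole reads could be recovered from the steps of the values for 100% of the 30944 genes above 0 (within 0.001 reads) and give the depths printed; intervals from them would cover counting error only. Gene numbers were paired with RefSeq symbols for 80.2% of genes and 93.4% of those tested. The mitochondrially encoded genes were not analysed here, and no sequence or coordinate was used.

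Values were taken as log2(FPKM + 1), which understates changes of low genes. Genes with FPKM of at least 0.5 in at least 4 libraries were fitted with limma 3.58.1 in R 4.3.3 (6 group means, 24 libraries, 18 residual degrees of freedom, variance trend, two-sided, Benjamini-Hochberg over 22682 genes). The script was tested on simulated data. Lists were described by counts and medians, with no test. Genes named are the 12 of smallest p in each direction without overlap, the 5 of smallest p in each list described, and preset stress, clock and transport genes; others were named after their values were seen. The comparison, members and lists were chosen with earlier results of these data known. Alternatives covered the pseudocount, the filter, the scaling, the variance trend, a replicate block, the groups in the fit, each library left out, and, chosen after seeing the data, limma-voom on the recovered reads.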

Additional observations from a re-analysis of the deposited data

Results flagged for a closer look

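Among 208 groups of 4 libraries examined, 7 held a library whose gap to its neighbour exceeded Dixon's critical share of the group's range on the log2(FPKM + 1) scale; chance gives about 1 in 20. In vehicle these were rps15 in replicate 1 (10.09 FPKM), LOC100536182 in replicate 2 (4.02 FPKM), nek2 in replicate 1 (0.862 FPKM) and ctsd in replicate 4 (27.2 FPKM). In uranyl nitrate 30 µg/L they were mttp in replicate 1 (25.2 FPKM), mt2 in replicate 2 (203 FPKM) and hsp70l in replicate 4 (18.9 FPKM). The uranyl nitrate difference with arsenite minus that without it passed limma's test for soul5 (−0.78), LOC100331080 (1.92) and lratb.2 (−1.97).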

How the results depend on the processing

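The count of 0 genes for uranyl nitrate 30 µg/L against vehicle was 0 to 3 with 1 library left out (1 without vehicle replicate 1, 3 without vehicle replicate 4) and 1 with limma-voom on recovered reads, where flt1 passed. At unadjusted p under 0.05 and over the same 22682 genes, the count ran from 1378 (without exposed replicate 3) to 1843 (the 2 groups fitted alone). It was 1349 of 17657 genes with the filter at FPKM 2 and 1993 of 30944 with no filter. The macrophage median was −0.048 with a pseudocount of 5 and −0.16 with limma-voom. For 300 against 30 µg/L the count was 465 to 1354 with 1 library left out. For the mixture against arsenite the count of 1 became 0 when the 2 groups were fitted alone, and was 1 to 3 with 1 library left out. The cathepsin median of that comparison was −0.042 (without arsenite replicate 3) to 0.035 with 1 library left out. Causes of these moves were not tested. EdgeR and DESeq2 were not run, and limma-voom was the only fit made on the recovered reads.

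The replicate numbers did not pair the samples: deviations of same-numbered exposed and vehicle libraries correlated at 0.018, −0.021, −0.046 and 0.012. With the replicate number as a block, 0 genes passed against vehicle (1603 unadjusted), 1425 between the doses and 2 in the mixture against arsenite.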
